A study of Mus musculus with 6 samples.

Results

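Follicular helper T cells are CD4+ T cells that enter B cell follicles and support germinal centres, where B cells mutate and select their antibody genes. The repressor Bcl6 sets this fate in opposition to the repressor Prdm1, contact with B cells runs through Icos and the SLAM receptors with their adaptor Sh2d1a, and basic helix-loop-helix factors tune entry into the follicle. The 10 genes described here belong to that programme: the transcriptional regulators Bcl6, Ascl2, Tox2 and Id3, the contact molecules Icos, Sh2d1a and Cd200, the secreted proteins Sostdc1 and Angptl2, and the ATP-gated channel P2rx7. They were taken by symbol from the 22899 genes of each expression table, and all 10 were found. The choice used none of the measured differences as its rule, although earlier results on these data were known when the genes were proposed.

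The libraries hold RNA of CD4+ T cells from the spleen of C57BL/6 mice, sorted by flow cytometry. The lean group was on a normal diet and the obese group on a high-fat diet with 60 kcal% fat, each with 3 libraries. Diets generally began at 6 to 8 weeks of age and lasted at most 4 months. Values are FPKM, in which fragment numbers are scaled for transcript length and library size, so levels of different genes can be set side by side. Read depth is unknown. Whether a library stands for 1 mouse or for pooled mice is not in the labels, and p-values therefore reflect only how these libraries scatter, which may be technical. The sort was of all CD4+ T cells, not of follicular helper cells, and in such bulk RNA a smaller number of cells and less RNA per cell cannot be told apart.

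The T cell label held in all 6 libraries: Cd4, the co-receptor that names the sorted cells, lay between 279.31 and 362.61 FPKM, the receptor chain Cd3e between 346.2 and 454.87 FPKM, and none of 17 T cell identity genes passed limma's test for a difference (2 had an unadjusted p under 0.05). Only 3 of the 17 had an obese minus lean difference above 0 (17.6%, against 70.8% of all tested genes). Their median log2 difference was −0.11, against 0.10 over all tested genes. Transcripts of other cells were present too. The mean of 13 B cell markers on the log2(FPKM + 1) scale spanned 4.29 to 5.10 among lean libraries. Among obese libraries it spanned 4.73 to 5.70, highest in obese 3. All 13 had a difference above 0 (against 70.8% of all tested genes), with a median of 0.43. None passed limma's test (3 had an unadjusted p under 0.05). Groups did not overlap, with obese higher, for 1 of the 13 (7.69%, against 25.4% of all tested genes). All 17 macrophage and monocyte markers rose, with list means between 4.03 and 4.20 in lean and between 5.43 and 5.76 in obese libraries. All 11 erythroid markers found rose, with a median difference of 4.70 and sums of 175.74 to 477.18 FPKM in lean and 4377.44 to 29114.3 FPKM in obese libraries. Of 12 neutrophil markers 6 fell, with sums from 614.87 to 896.08 FPKM in lean libraries and from 173.23 to 477.03 FPKM in obese ones. Cxcr2 (0.10) and Csf3r (0.17) had differences above 0 without a call. Of 11 natural killer cell markers 4 fell, with sums from 517.1 to 665.72 FPKM in lean libraries and from 399.25 to 536.94 FPKM in obese ones. Among them Eomes was higher in every obese library than in any lean one (0.23), without a call. Over all tested genes 5.77% were called higher and 0.519% lower. The part of all these other cells in the members' values was not tested. FPKM summed to between 595105.6 and 656303.2 per library.

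Obese libraries were set against lean ones to ask whether the follicular helper programme of splenic CD4+ T cells differs with diet-induced obesity. Sostdc1 was higher in every obese library, with 1.75 times the lean mean, and no other of the 10 genes passed the test. Icos and Cd200 were also higher in every obese library than in any lean one, by 1.32 and 1.35 times, without passing. Bcl6, Tox2 and Angptl2 had higher obese means with overlapping groups, and Sh2d1a, Id3, P2rx7 and Ascl2 differed by less than their spread. Differences are obese minus lean, in units of log2(FPKM + 1), a scale that understates the change of low genes. The test was limma, run over 10788 genes that reached 1 FPKM in at least 3 libraries, and a gene was called at a p under 0.05 after Benjamini-Hochberg (BH) adjustment over all of them, written here as q.

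All 10 genes passed the filter on low values. The single call is 10% of them, against 5.77% of all tested genes called higher and 0.519% called lower. Groups did not overlap, with obese higher, for 3 of the 10 (30%), against 25.4% of all tested genes. The difference was above 0 for 9 of the 10 genes (90%), as for 70.8% of all tested genes, and the median difference was 0.30, against 0.10 over all tested genes. The shares called and not overlapping are near those of all genes, so these counts do not set the 10 genes apart.

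**Figure D1:**
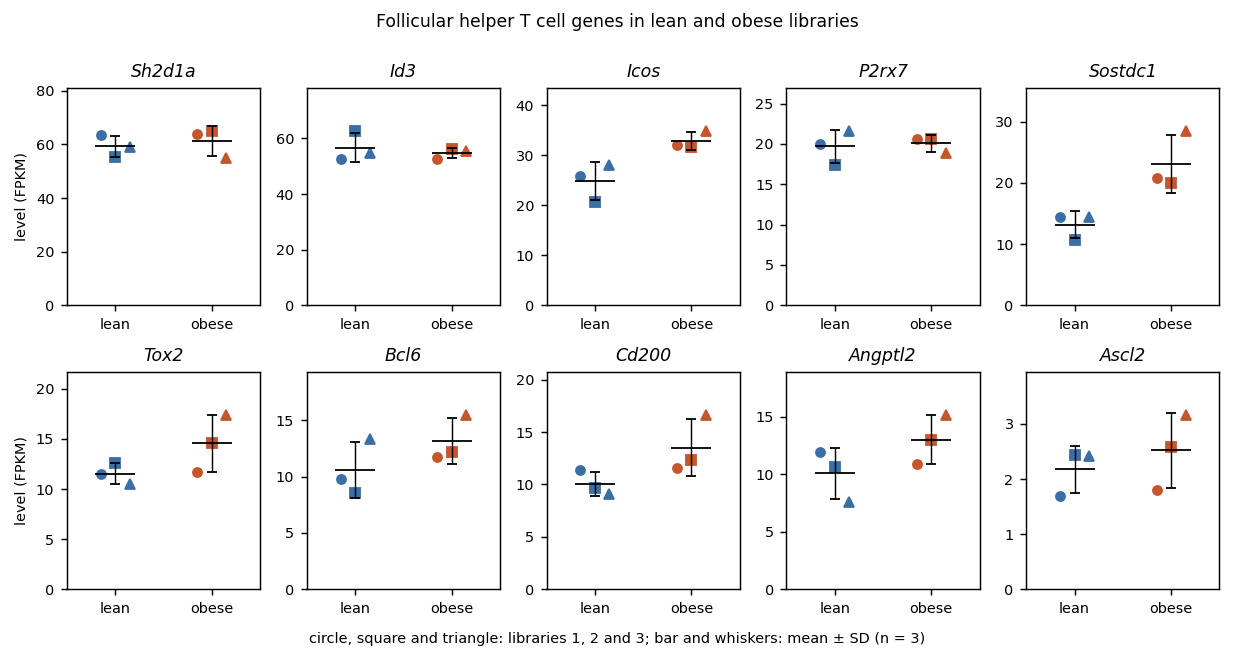
Level in FPKM (vertical axes, from 0) of the 10 genes in 3 lean and 3 obese libraries, with the mean and SD of each group and 1 symbol per library number. The groups separate for Sostdc1, Icos and Cd200, and obese 3 (triangle) is the highest library for 7 of the 10 genes.

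Levels spanned a wide range among the genes. Over the 6 libraries Sh2d1a had the highest mean, 60.3 FPKM, followed by Id3 (55.7 FPKM), Icos (28.8 FPKM), P2rx7 (19.9 FPKM), Sostdc1 (18.1 FPKM), Tox2 (13.1 FPKM), Bcl6 and Cd200 (11.8 FPKM each), Angptl2 (11.5 FPKM) and Ascl2 (2.35 FPKM). The ranges of neighbours in this order overlapped except between Id3 and Icos and between Angptl2 and Ascl2. Sh2d1a and Id3 thus stood above the rest in every library, Ascl2 stood below, and the order of the 7 genes between them was not resolved at each step. Among all tested genes, Sh2d1a lay at percentile 87.7 of mean level, Bcl6 at 49.8 and Ascl2 at 12.2.

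Bcl6 (gene 12053, chromosome 16, 23965050 to 23988866, GRCm38), the repressor that defines the follicular helper fate and that germinal centre B cells also need, had the widest scatter among the lean libraries of any member relative to its mean (SD of 23.6% of the mean). It stood at 9.80, 8.54 and 13.35 FPKM in lean 1, 2 and 3 and at 11.73, 12.19 and 15.46 FPKM in obese 1, 2 and 3. Lean 3 lay above 2 of the obese libraries, so the groups overlapped. Means were 10.6 ± 2.49 and 13.1 ± 2.03 FPKM (SD, n = 3 each), and the log2 difference of 0.30 ± 0.16 (SE) had a 95% confidence interval from −0.07 to 0.67 and did not pass (limma q = 0.275).

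The reference table of RefSeq promoters (build GRCm38.p6, windows of 300 bases, from 250 before to 50 after a start) held 13 windows for 7 of the members and none for Icos, Sh2d1a and Sostdc1. Shown are the 250 bases before the outermost start in that table, for Bcl6, Cd200 and Id3. The groups of Cd200 did not overlap, and those of Id3 did. The stretches of Bcl6 and Cd200 reach a few bases into the RefSeq spans of these genes. Capitals mark any match, on either strand, to CANNTG (the E-box of basic helix-loop-helix proteins such as Ascl2 and the E proteins that Id3 binds), to its form CAGGTG, to TTCNNNGAA (STAT factors), to CTTTGA (TCF and LEF factors) or to TGACTCA (AP-1).
Bcl6, chr16:23988853-23989102, minus strand: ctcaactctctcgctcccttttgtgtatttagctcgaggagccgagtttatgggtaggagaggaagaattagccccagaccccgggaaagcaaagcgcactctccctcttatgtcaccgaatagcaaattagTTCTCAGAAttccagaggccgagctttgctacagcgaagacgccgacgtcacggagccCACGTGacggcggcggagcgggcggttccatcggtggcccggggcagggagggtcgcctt
Cd200, chr16:45409054-45409303, minus strand: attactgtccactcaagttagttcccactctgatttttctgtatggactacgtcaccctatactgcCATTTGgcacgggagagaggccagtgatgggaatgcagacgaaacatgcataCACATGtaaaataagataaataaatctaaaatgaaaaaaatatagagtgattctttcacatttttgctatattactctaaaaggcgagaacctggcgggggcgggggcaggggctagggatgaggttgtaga
Id3, chr4:136143572-136143821, plus strand: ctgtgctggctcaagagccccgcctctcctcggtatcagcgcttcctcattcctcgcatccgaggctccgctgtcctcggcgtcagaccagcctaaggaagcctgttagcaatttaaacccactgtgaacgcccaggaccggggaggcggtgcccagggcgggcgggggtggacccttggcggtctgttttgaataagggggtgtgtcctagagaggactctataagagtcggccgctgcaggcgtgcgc
In the Bcl6 stretch 1 STAT match and 1 E-box were found, in that of Cd200 2 E-boxes, and in that of Id3 no match to these letters. Over the 13 windows, 10 held CANNTG, against 72.3% of all 32851 windows in the table. CAGGTG, whose matches are also matches to CANNTG, was found in 2 of the 13 windows, those of Ascl2 and of 1 start of Tox2, against 20.2% of all windows. TTCNNNGAA was found in 2 windows, both of Bcl6, against 8.3% of all. CTTTGA was found in 4 of the 13, against 16.0%, and TGACTCA in 1, of P2rx7, against 5.2%. Windows of 1 gene can overlap, as 2 pairs of the Tox2 windows do, and a match describes letters, not binding.

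The remaining regulators varied without a call. Tox2 (chromosome 2, 163203058 to 163324172), a high mobility group factor that opens chromatin at follicular helper genes, stood at 11.46, 12.64 and 10.52 FPKM in lean and at 11.74, 14.57 and 17.38 FPKM in obese libraries. Obese 1 lay within the lean range, and obese 2 and obese 3 lay above it. Its log2 difference was 0.30 ± 0.14 (SE; limma q = 0.214). Ascl2 (chromosome 7, 142966822 to 142969264), a basic helix-loop-helix factor that induces the follicle-homing receptor Cxcr5, was the lowest member, at 1.69, 2.43 and 2.41 FPKM in lean and 1.81, 2.59 and 3.16 FPKM in obese libraries. Library 1 was the lowest in each group, and the difference of 0.14 ± 0.17 (SE; limma q = 0.631) turned to −0.12 after quantile normalization. Id3 (chromosome 4, 136143822 to 136145392), which sequesters E proteins and restrains the follicular helper fate, stood at 52.62, 62.66 and 54.71 FPKM in lean and 52.66, 56.31 and 55.32 FPKM in obese libraries. The obese values lay inside the lean range, with a difference of −0.04 ± 0.08 (SE; 95% confidence interval −0.24 to 0.15; limma q = 0.766) whose sign turned under 4 settings of scaling or weights and without lean 2.

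Of the contact molecules, Icos came nearest to a call. Icos (gene 54167, chromosome 1, 60960773 to 61000322), the costimulatory receptor engaged by Icosl on B cells, stood at 25.82, 20.58 and 28.10 FPKM in lean and at 32.04, 31.58 and 34.84 FPKM in obese libraries. All 3 obese libraries lay above all 3 lean ones. Means were 24.8 ± 3.86 and 32.8 ± 1.76 FPKM (SD, n = 3 each), a difference of 0.40 ± 0.11 (SE; 95% confidence interval 0.14 to 0.66) that did not pass (limma q = 0.0780). It passed without lean 3 (limma q = 0.0472) and with library weights estimated from the data by limma (0.0124). Regulatory T cells carry Icos as well, and their factor Foxp3 lay between 41.40 and 53.24 FPKM in lean and between 51.94 and 54.66 FPKM in obese libraries; its part in the Icos values was not tested.

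Cd200 (gene 17470, chromosome 16, 45382111 to 45409060), a surface glycoprotein that signals to the inhibitory receptor Cd200r1 and is also made by B cells, stood at 11.37, 9.62 and 9.12 FPKM in lean and at 11.57, 12.37 and 16.62 FPKM in obese libraries. The groups did not overlap, but lean 1 and obese 1 were nearly level. The difference of 0.39 ± 0.14 (SE; 95% confidence interval 0.06 to 0.71) did not pass (limma q = 0.139). Sh2d1a (gene 20400, chromosome X, 42502565 to 42522097), the adaptor SAP that carries SLAM receptor signals needed for lasting contact with B cells, stood at 63.49, 55.47 and 58.92 FPKM in lean and at 64.08, 65.01 and 54.99 FPKM in obese libraries. Obese 3 was the lowest of all 6 libraries for this gene, the reverse of its place for 7 other members. The difference of 0.05 ± 0.09 (SE; 95% confidence interval −0.16 to 0.25; limma q = 0.774) turned to −0.10 after median-of-ratios scaling and was also below 0 after quantile normalization.

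Among the secreted proteins, Sostdc1 (gene 66042, chromosome 12, 36314169 to 36318452), an antagonist of BMP and Wnt signals that follicular helper cells produce, gave the call. It stood at 14.45, 10.67 and 14.48 FPKM in lean 1, 2 and 3 and at 20.75, 20.05 and 28.49 FPKM in obese 1, 2 and 3. The lowest obese library thus lay above the highest lean one, and obese 3 stood above the other obese libraries. Means were 13.2 ± 2.19 and 23.1 ± 4.68 FPKM (SD, n = 3 each), a difference of 0.76 ± 0.16 (SE; 95% confidence interval 0.40 to 1.12; limma q = 0.0268). With each library scaled by its mean level of 17 T cell identity genes, the difference was 0.81 ± 0.19 (SE; limma q = 0.0347). The call was lost without lean 1 (limma q = 0.0596), without lean 2 (0.0839), without obese 3 (0.0535) and with no filter on low values (0.0805), with differences from 0.60 to 0.83 in these limma fits. Secreted antagonists of this kind are also made by stromal cells. Of 10 stromal and endothelial markers only Pecam1, which leukocytes also carry, passed the filter, with no call. The other 9 lay at or under 0.49 FPKM in every library, among them Pdgfrb at 0.23 to 0.39 FPKM, Cxcl13 at 0.04 to 0.31 FPKM and Col1a1 at 0.07 to 0.13 FPKM, each with overlapping groups. The part of stromal cells in the Sostdc1 values was not tested.

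Angptl2 (gene 26360, chromosome 2, 33215951 to 33247725), a secreted angiopoietin-like glycoprotein found in follicular helper signatures and also made by macrophages, stood at 11.94, 10.64 and 7.60 FPKM in lean and at 10.92, 12.95 and 15.13 FPKM in obese libraries. Lean 1 lay above obese 1, so the groups overlapped. The difference was 0.35 ± 0.17 (SE; limma q = 0.226). Macrophage marker means did not overlap between groups (4.03 to 4.20 in lean, 5.43 to 5.76 in obese libraries), and their part in the Angptl2 values was not tested. P2rx7 (gene 18439, chromosome 5, 122643927 to 122692336), an ATP-gated channel that limits the number of follicular helper cells, stood at 20.02, 17.45 and 21.60 FPKM in lean and at 20.67, 20.63 and 18.88 FPKM in obese libraries. The obese values lay inside the lean range, and the difference of 0.03 ± 0.10 (SE; 95% confidence interval −0.19 to 0.25; limma q = 0.872) turned below 0 after median-of-ratios scaling, after quantile normalization and without lean 2.

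**Figure D2:**
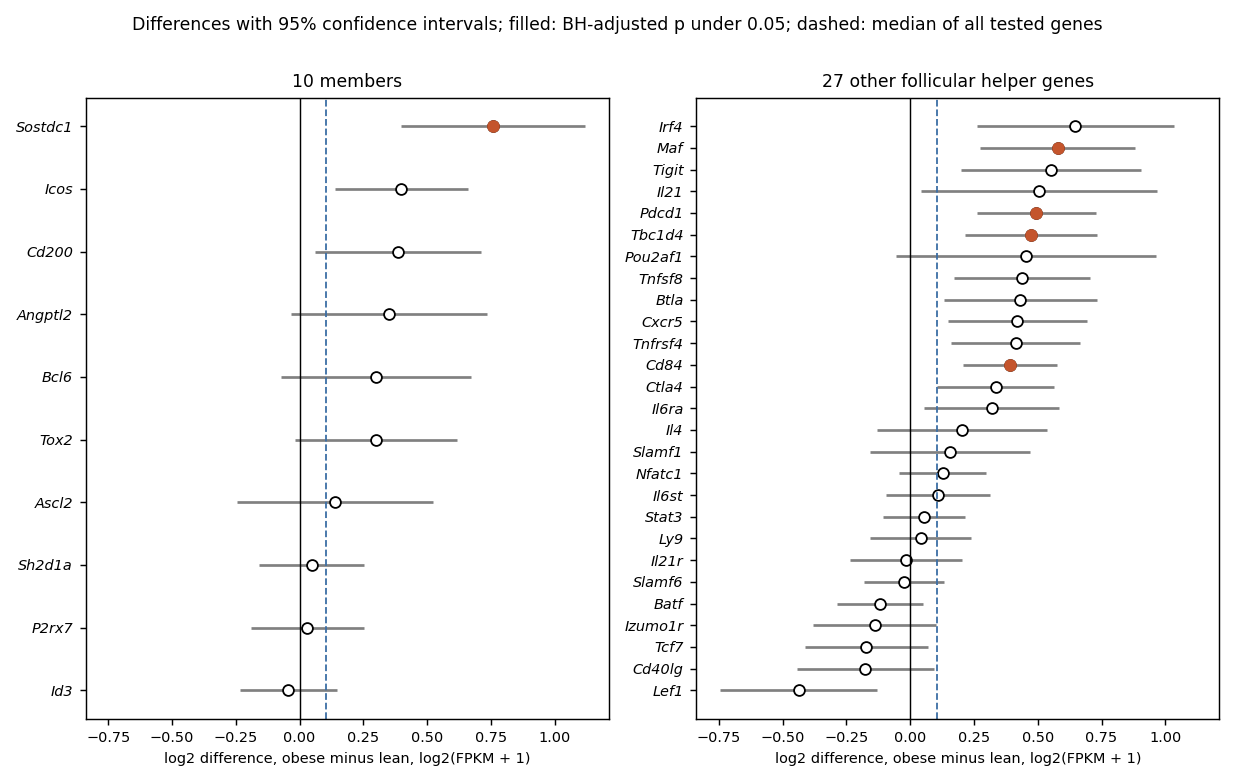
Difference in log2(FPKM + 1), obese minus lean, with its 95% confidence interval, for the 10 members (left) and 27 other follicular helper genes (right). Filled points have a limma q under 0.05 (Sostdc1 on the left, Maf, Pdcd1, Tbc1d4 and Cd84 on the right), and the dashed line marks the median of all tested genes, 0.10.

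Library by library, the 10 genes did not move as a block. Obese 3 was the highest library for 7 of them (Icos, Sostdc1, Tox2, Bcl6, Cd200, Angptl2 and Ascl2), but it was also the highest library for 39.2% of all tested genes. Lean 2 was the lowest for 4 of them (Icos, P2rx7, Sostdc1 and Bcl6), as for 37.6% of all tested genes. Mean log2(FPKM + 1) over the 10 genes was 4.07, 3.97 and 4.06 in lean and 4.18, 4.28 and 4.44 in obese libraries. Obese 3 also had the highest B cell marker mean (5.70) and the lowest T cell identity mean (7.22, against 7.40 to 7.48 in the others). Lean 2 had the highest B cell marker mean of the lean libraries (5.10). It was the lowest lean library for Bcl6, Icos, Sostdc1, P2rx7 and Sh2d1a, the highest for Tox2, Ascl2 and Id3, and lay between the other lean libraries for Cd200 and Angptl2. The part of B cell RNA in the members' values was not tested.

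**Figure D3:**
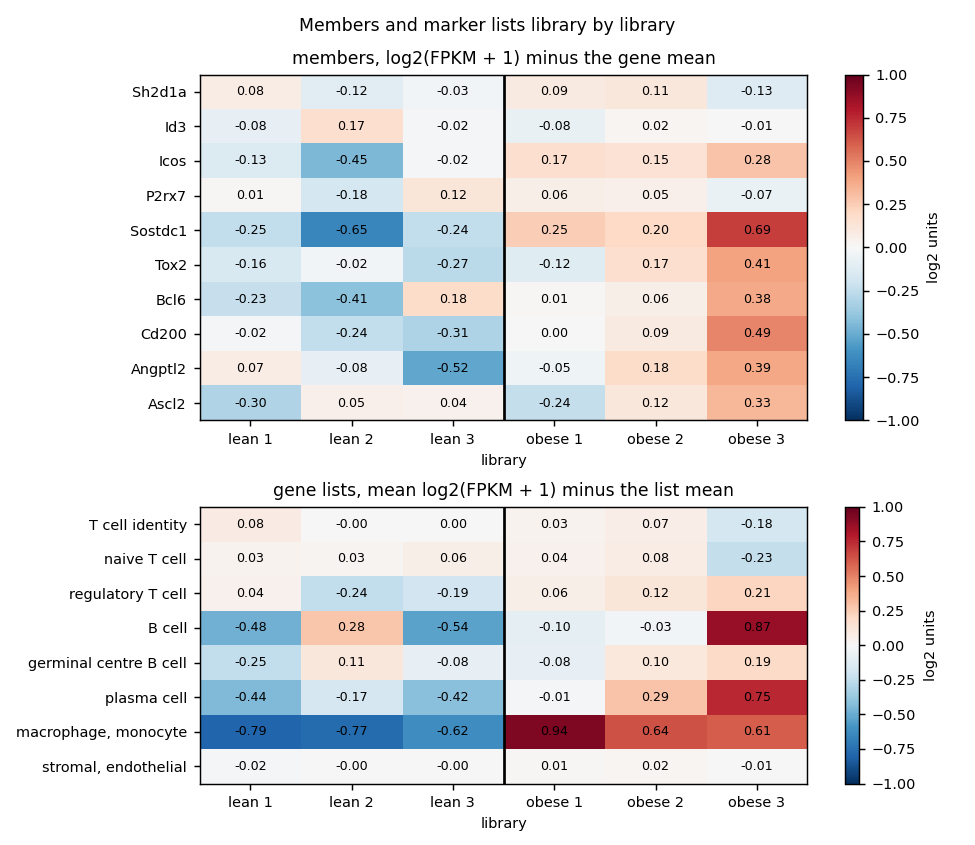
Each member's log2(FPKM + 1) minus its mean over the 6 libraries (top) and the mean log2(FPKM + 1) of marker lists minus the list's mean (bottom), with lean libraries left and obese libraries right of the line. Sostdc1, Icos and Cd200 are below their means in all 3 lean and above them in all 3 obese libraries, Cd200 only barely in obese 1. Obese 3 combines the highest values of 7 members with the highest B cell and lowest T cell identity means.

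Other genes of the follicular helper programme were taken from a list of 27, all of which passed the filter on low values. Of these, 4 rose and none fell, which is 14.8% against 5.77% of all tested genes called higher, and 12 (44.4%) had non-overlapping groups with obese higher, against 25.4%. Lef1, a partner of Tcf7 that is also high in naive T cells, had non-overlapping groups with obese lower (3.7%, against 6.15%), at 205 to 213.87 FPKM in lean and 121.57 to 176.57 FPKM in obese libraries (difference −0.44; limma q = 0.0917). The list's median difference was 0.32, against 0.10 over all tested genes. Pdcd1, the inhibitory receptor PD-1 carried at high level by follicular helper cells, stood at 36.96, 31.62 and 33.33 FPKM in lean and at 43.76, 46.40 and 55.01 FPKM in obese libraries, a difference of 0.49 ± 0.10 (SE; limma q = 0.0260). Maf, a transcription factor that drives Il21, rose by 0.58, with 17.67 to 20.80 FPKM in lean and 25.63 to 36.56 FPKM in obese libraries (limma q = 0.0403). Cd84, a SLAM receptor upstream of Sh2d1a, rose by 0.39 (limma q = 0.0252), and Tbc1d4, a regulator of glucose transporter traffic, by 0.47 (0.0471). None of the 4 passed after median-of-ratios scaling, with differences from 0.25 (Cd84) to 0.43 (Maf), or after scaling by T cell identity genes, with differences from 0.44 (Cd84) to 0.63 (Maf) that were above those reported. Each call was also lost without lean 2 and without obese 3, with differences from 0.36 to 0.51. Pdcd1 was also lost without lean 3 or obese 2, Cd84 without lean 1 or obese 1, Maf without lean 1, lean 3 or obese 2, and Tbc1d4 without lean 1, obese 1 or obese 2 (limma q up to 0.140). Macrophage and monocyte marker means lay between 4.03 and 4.20 in lean and between 5.43 and 5.76 in obese libraries. The part of macrophages and other non-T cells in the values of these 4 genes and of the list was not tested.

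The defining surface receptor and cytokine of the lineage were higher in each obese library than in any lean one, without passing. Cxcr5, the receptor that guides cells into follicles and that B cells carry too, stood at 48.45, 66.23 and 55.39 FPKM in lean and at 71.45, 71.53 and 84.33 FPKM in obese libraries. The log2 difference of 0.42 ± 0.12 (SE) did not pass (limma q = 0.0769). Il21, the cytokine of germinal centre help, ranged from 2.08 to 2.57 FPKM in lean and from 2.79 to 5.74 FPKM in obese libraries (log2 difference 0.50; limma q = 0.164). Tcf7, which acts early in the programme and is high in naive T cells, had −0.17 (limma q = 0.332).

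Genes that oppose the follicular helper fate were followed in a list of 16, all tested. Of these, 1 rose and none fell (6.25%, near the 5.77% of all tested genes called higher). Groups did not overlap with obese lower for 3 (Klf2, Il2rb and Tbx21), 18.8% against 6.15% of all tested genes, and with obese higher for 2 (Prdm1 and Itch), 12.5% against 25.4%. The list's median difference was 0.04. The gene that rose was Prdm1, the repressor that blocks Bcl6 and is also high in plasma cells. It stood at 2.16, 1.93 and 2.46 FPKM in lean and at 3.62, 4.12 and 5.99 FPKM in obese libraries, a difference of 0.79 ± 0.16 (SE; limma q = 0.0252) that did not pass without lean 1 or lean 2, with no filter or after quantile normalization. The mean of 8 plasma cell markers, Prdm1 among them, lay between 4.19 and 4.47 in lean and between 4.63 and 5.39 in obese libraries, and their part in the Prdm1 values was not tested. Klf2, which keeps T cells out of follicles, stood at 425.92, 510.15 and 415.71 FPKM in lean and at 364.83, 410.01 and 360.04 FPKM in obese libraries. The groups did not overlap, with a difference of −0.25 ± 0.10 (SE) that did not pass (limma q = 0.162).

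Members were set against an antagonist, a paralogue and a T cell reference as log2 ratios within each library. Bcl6 to Prdm1 was 1.77, 1.70 and 2.05 in lean and 1.46, 1.37 and 1.24 in obese libraries, lower in every obese library, by 0.49 on average. The exact 2-sided permutation p was 0.10, the smallest that 3 against 3 libraries can give, and 0.30 after BH adjustment over the 3 ratios. Although the mean Bcl6 level was higher in obese libraries, Prdm1 was higher by more, which lowered the ratio. Id3 to Id2, the latter an Id protein that also restrains the programme, was −1.42, −0.59 and −1.07 in lean and −1.42, −1.38 and −1.34 in obese libraries (exact permutation p = 0.40, BH-adjusted 0.40). The obese values lay within the lean range, and Id2 itself had a difference of 0.30 (limma q = 0.185). Icos to Cd3e was −4.03, −4.26 and −3.67 in lean and −3.39, −3.81 and −3.30 in obese libraries, with overlap between lean 3 and obese 2 (exact permutation p = 0.20, BH-adjusted 0.30).

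**Figure D4:**
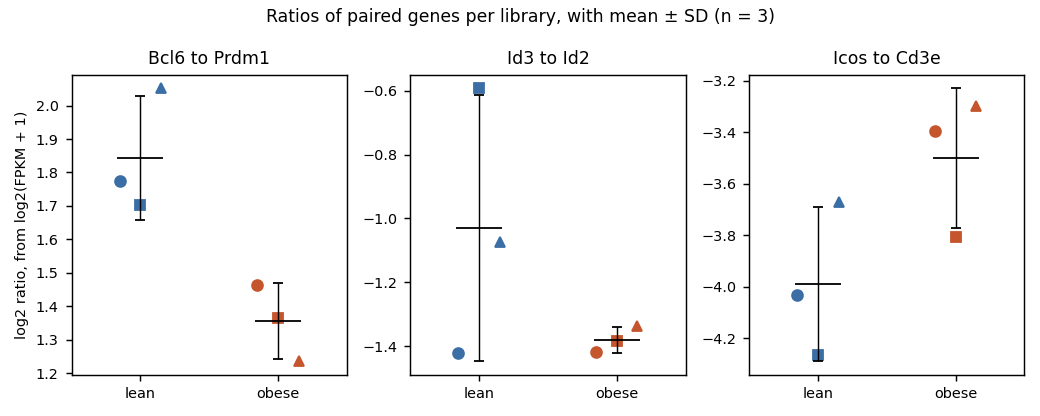
Log2 ratio of paired genes, from log2(FPKM + 1) values, in each of 3 lean and 3 obese libraries, with mean and SD; axes do not start at 0. Only for Bcl6 to Prdm1 do the groups separate, with obese libraries at 1.24 to 1.46 and lean libraries at 1.70 to 2.05.

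Partners of the members were followed in a list of 19, of which 3 rose and none fell (15.8%, against 5.77% of all tested genes called higher). Groups did not overlap with obese higher for 4, the 3 called genes and Lrp5 (21.1%, against 25.4%), and with obese lower for 1, Panx1 (5.26%, against 6.15%). Cd200r1, the receptor of Cd200 found mainly on myeloid cells, rose by 0.52 ± 0.12 (SE; limma q = 0.0362), with 3.42 to 4.13 FPKM in lean and 5.37 to 6.68 FPKM in obese libraries. Sh2d1b1, which encodes the adaptor EAT-2 of the same family as Sh2d1a and is found in natural killer and myeloid cells, rose by 0.54 (limma q = 0.0298). Entpd1, the ectoenzyme CD39 that removes the ATP sensed by P2rx7, rose by 0.71 (limma q = 0.00360) and passed in all 20 other settings, which neither of the other two did. Cd200r1 and Sh2d1b1 did not pass after median-of-ratios scaling (differences 0.40 and 0.42) or quantile normalization (0.29 and 0.31), and Cd200r1 did not pass after scaling by T cell identity genes (0.56; limma q = 0.0751). Without any 1 library Cd200r1 did not pass (differences 0.45 to 0.59; limma q up to 0.124), nor did Sh2d1b1 except without obese 3 (0.48 to 0.62; up to 0.110). All 3 are also made by macrophages or other myeloid cells, whose marker means were between 4.03 and 4.20 in lean and between 5.43 and 5.76 in obese libraries; the part of those cells was not tested. Icosl, the ligand of Icos on B cells and other antigen-presenting cells, ranged from 17.20 to 26.16 FPKM in lean and from 23.35 to 31.83 FPKM in obese libraries and did not pass (log2 difference 0.30; limma q = 0.275).

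The genes whose profile over the 6 libraries lay closest to a member were found by the root mean square difference of mean-centred log2(FPKM + 1) values, among 8015 named genes with a group mean of at least 5 FPKM. For Sostdc1 these included Gpm6b (difference 0.063), a membrane proteolipid, and Septin8 (0.063), a cytoskeletal GTPase. Both were called higher, Gpm6b with 4.58 to 5.98 FPKM in lean and 9.40 to 12.91 FPKM in obese libraries (limma q = 0.0124). For Bcl6 they were Syncrip (0.024), an RNA-binding protein, Nt5e (0.025), the ectoenzyme CD73 that makes adenosine, and Azin1 (0.029), a regulator of polyamine synthesis, none of which passed. Nt5e, which was also on the list of partners, stood at 15.08, 13.16 and 20.72 FPKM in lean and at 18.72, 18.35 and 23.56 FPKM in obese libraries, with lean 3 high and lean 2 low as for Bcl6. For Icos they were Hat1 (0.024), a histone acetyltransferase, Ddx1 (0.025), an RNA helicase, and Cnot7 (0.029), a deadenylase, none of which passed. The similarity is a description of 6 libraries.

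**Figure D5:**
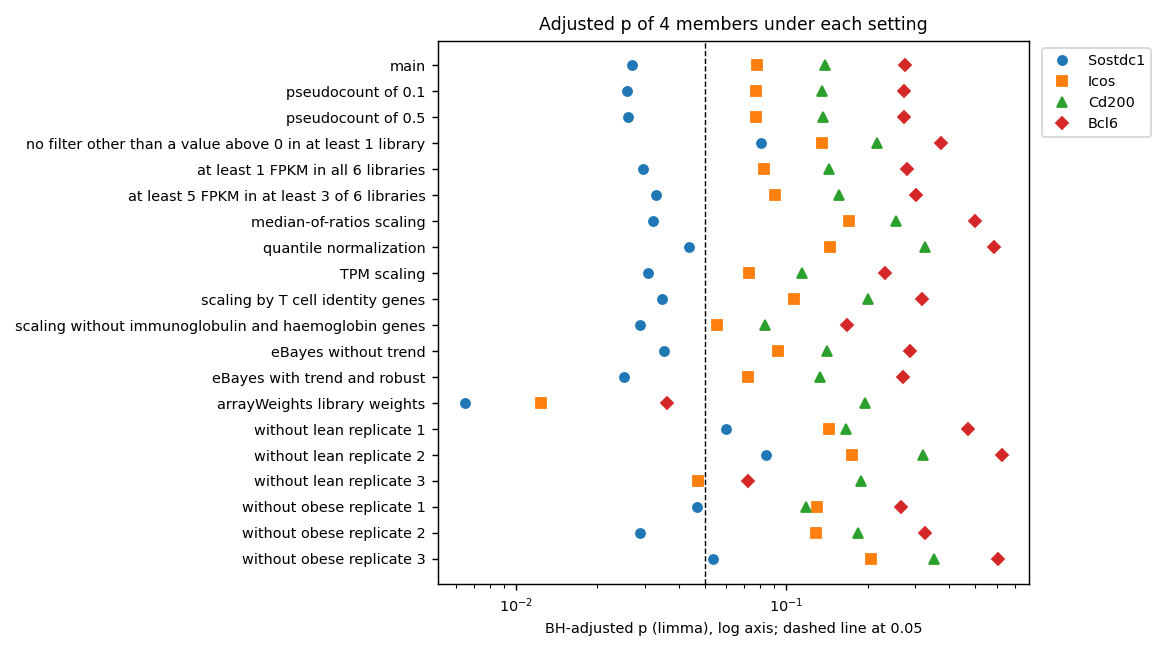
q from limma (horizontal log axis) of Sostdc1, Icos, Cd200 and Bcl6 under the test as reported (main) and each other setting of scaling, filter, variance model or left-out library (the term for the replicate number is not drawn), with a dashed line at 0.05. Without lean 3 the point of Sostdc1 lies behind that of Icos, at the same q of 0.0472. Sostdc1 crosses the line with no filter and without lean 1, lean 2 or obese 3, while Cd200 stays above it in all settings shown.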

How the data were processed

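The authors deposited 1 table of FPKM values per library, covering 22899 genes with 2 decimals. The submitters' processing notes list Bowtie, RSEM, GRCm38 and mm10, with no versions. Annotation, filters and strandedness: not given in the sources used here. No counts were used. Low values were searched for whole-read steps and none were clear, so depth is unknown and precision rests on the spread between libraries. Groups follow the sample titles. Values were transformed to log2(FPKM + 1), filtered at 1 FPKM in at least 3 of 6 libraries and tested with limma 3.58.1 in R 4.3.3 (eBayes with trend, group as the sole term, 2-sided). The q values are Benjamini-Hochberg adjusted p-values over all 10788 genes. This test was checked on simulated data, in 10 runs with 200 changed genes each. It recovered 54.1% of changes of 0.5 in log2 units and 98.8% of changes of 1, with 5.88% of calls false. The simulated noise was independent between genes, with no shift shared by the genes of a library. In the data, obese 3 was the highest library for 39.2% of all tested genes, so these rates may not carry over. Uncalled members differed by less than 0.5, so the lack of a call does not show that they are unchanged. Coordinates come from RefSeq (GRCm38.p6), matched by gene number.

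All 10 members are named. List genes are named where called, as are 12 further genes whatever their result, for example Cxcr5, Il21, Klf2 and Foxp3. Markers of other cell types and Il2rb, Tbx21, Itch, Lef1, Lrp5, Panx1, Ikzf2, Tcf3 and Tcf12 were named after their values were seen. The members and lists were chosen with earlier results of these data known. Alternatives were other pseudocounts, filters, scalings and variance models, weights per library, a term for the replicate number, and each library left out.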

Additional observations from a re-analysis of the deposited data

How the results depend on the processing

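The difference of Sostdc1 stayed above 0 in all 20 alternatives, as did those of Icos, Cd200, Bcl6, Tox2 and Angptl2. Sostdc1 did not pass with no filter (difference 0.76, limma q = 0.0805, with more genes tested) or in some fits without 1 library (0.60 to 0.85). Icos passed with library weights (0.33) and without lean 3 (0.27 to 0.49 over the fits without 1 library), and Bcl6 with library weights (0.30). The number of the 10 members called higher, 1 as reported, was 0 with no filter, 3 with library weights, and 0 to 2 without 1 library; none was called lower in any setting. Genes called over all tested genes, 622 higher and 56 lower, numbered 344 and 24 with no filter, 324 and 119 after quantile normalization, and 2507 and 609 with library weights. Scaling without haemoglobin genes and Jchain gave 950 higher, median-of-ratios scaling 175 lower, and scaling by T cell identity genes 36 lower. Without 1 library the counts were 299 to 601 higher and 19 to 97 lower. Of the 43 other follicular helper genes and opponents, 5 were called higher, but 1 with no filter, 2 at a minimum of 5 FPKM, 1 after median-of-ratios scaling, 1 after quantile normalization, 1 with scaling by T cell identity genes, 10 with scaling without haemoglobin genes, 3 without the variance trend, 14 with library weights (3 lower), and 1 to 4 without 1 library. Median-of-ratios scaling moved the median difference of all genes from 0.10 to −0.03, and that of the members from 0.30 to 0.16. The cause of these changes was not tested.

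Replicate numbers are shared by the groups, but the labels do not tie them to a litter or day, and deviations of same-numbered libraries from their group means correlated at 0.032, 0.0607 and 0.193. Lean 1 and lean 2 each correlated best with another number. With the replicate number as a block, Icos passed (difference 0.40, limma q = 0.0441), 2 members and 8 of the 43 other genes were called higher, and 149 genes were called lower over all genes.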

Other observations

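Genes of regulatory T cells, which include the follicular regulatory cells that restrain germinal centres and carry Bcl6, were followed in a list of 7. Of these, 1 rose and none fell (14.3%, against 5.77% of all tested genes called higher). Nrp1, a semaphorin receptor that dendritic cells and macrophages also carry, stood at 8.44, 5.99 and 8.05 FPKM in lean and at 11.31, 11.94 and 13.58 FPKM in obese libraries (difference 0.65; limma q = 0.0251), but its call was lost on leaving out lean 2, obese 2 or obese 3. Foxp3, the factor of the lineage, had a difference of 0.15 (limma q = 0.358), and Ikzf2, a partner of Foxp3, stood at 3.69 to 5.33 FPKM in lean and at 6.15 to 9.78 FPKM in obese libraries without passing (0.62; limma q = 0.0739).

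None of the 6 genes of the E protein and Id network passed (limma; 1 had an unadjusted p under 0.05). Tcf3 and Tcf12, the E proteins that Id3 binds, ranged from 49.15 to 57.50 FPKM and from 13.94 to 19.07 FPKM over the 6 libraries, with overlapping groups. In the deposited tables the symbol of Septin8 (gene 20362) reads as a calendar date, as spreadsheet programs write such symbols, and was restored from its gene number.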
